A study of Homo sapiens with 6 samples.

Results

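SR proteins, hnRNPs and PTB proteins are RNA-binding proteins that decide which exons of a pre-mRNA are kept, and the genes that encode them are described here in HCT116 cells, a human colorectal cancer line. The members are the protein-coding genes whose symbols begin with SRSF and a number, with HNRNP and a letter, or with PTBP and a digit. There are 42 of them among the 58395 genes in the files, namely 12 SR genes, 27 hnRNP genes and 3 PTB genes. The rule uses names only and no measured value, but it was set with earlier results of these data known. RNA-seq compares 3 libraries of cells that carry a non-target hairpin (shControl) with 3 libraries of cells that carry a hairpin against STBD1 (shSTBD1), a protein that binds glycogen and takes part in its autophagy. Both hairpins are delivered by lentivirus, and infected cells are kept under drug selection (the methods name puromycin or G418). The controls thus share infection and a selection step, but the drug and vector backbone of each group are not stated. The time between infection and harvest is not given, the methods list 1 hairpin for each group, and an effect of that hairpin beyond STBD1 cannot be told apart from the loss of STBD1. The shSTBD1 cells are a knockdown, not a knockout.

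SR proteins carry an RNA recognition motif and a tail rich in arginine and serine, bind exonic enhancers and mostly promote the use of an exon. The hnRNPs coat nascent transcripts, and many of them block the splice sites they lie near. PTB proteins are hnRNPs by origin that bind pyrimidine-rich stretches and mostly repress exons. Many of these genes control their own mRNA through poison exons, which carry a stop codon and send the transcript to nonsense-mediated decay. PTBP1, HNRNPA1 and HNRNPA2B1 are known for the choice of the exon that makes the M2 form of pyruvate kinase in tumour cells, and MYC is known to drive several of them.

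Each library holds between 17689097 and 21668274 expected counts, which RSEM estimates per gene. CPM below is the expected count per 1e6 counts after edgeR's TMM scaling and is used between libraries, while TPM also corrects for transcript length and is used between genes. A gene is called at an adjusted p under 0.05 by edgeR's quasi-likelihood test, adjusted over 15566 tested genes. STBD1 itself is at 16.2, 15.7 and 14.4 CPM in shControl and at 11.6, 9.07 and 9.16 CPM in shSTBD1. Its log2 fold change is -0.64 (standard error 0.098, n = 3 and 3, edgeR adjusted p = 0.000291). The line keeps epithelial RNA, with EPCAM, CDH1, KRT8, KRT18 and KRT19 between 72.8 and 1691 CPM in shControl, and 4 of these 5 are called higher in shSTBD1. Of the colon markers, CDX2 is at 14.8 CPM in shControl, whereas VIL1 and LGALS4 are under 1 CPM in both groups. Of 10 markers of fibroblasts, leukocytes and endothelium, 9 are under 1 CPM in both groups and COL1A1 is at 34.9 CPM. Library shControl 1 stands apart from the other controls. The mean chi-square per gene between it and them is 6.20 and 4.93, beside 1.65 between the other pair and at most 2.02 within shSTBD1. Members whose call changes without it are given with both values. In bulk RNA, fewer cells that express a gene and less of its RNA per cell cannot be told apart.

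Of the 42 members, 37 hold enough counts to be tested. SRSF12 stays near 0 in every library, and HNRNPCL1, HNRNPCL2, HNRNPCL3 and HNRNPCL4, copies of HNRNPC, are listed at 0 throughout. The tested members are abundant, and 25 of them reach 100 TPM or more in the shControl mean. Together the members take 1.524%, 1.538% and 1.537% of all counts in shControl and 1.515%, 1.523% and 1.526% in shSTBD1, so the groups overlap. Their TPM sums to between 10974 and 11312 in shControl and between 10769 and 10910.4 in shSTBD1. The 12 SR genes sum to 2127, 2258 and 2231 TPM in shControl and to 2096, 2094 and 2104 TPM in shSTBD1. The sums of the hnRNP genes run from 8485 to 8698 TPM in shControl and from 8340.1 to 8464 TPM in shSTBD1. Thus the summed TPM of both families is lower in all shSTBD1 libraries than in any shControl library, by a narrow margin for the hnRNP genes. A sum of TPM moves with the effective lengths described further on, and the members' share of counts does not separate the groups. The PTB genes sum to 347 to 362 TPM in shControl and 334 to 349.8 TPM in shSTBD1, where the groups overlap.

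**Figure D1:**
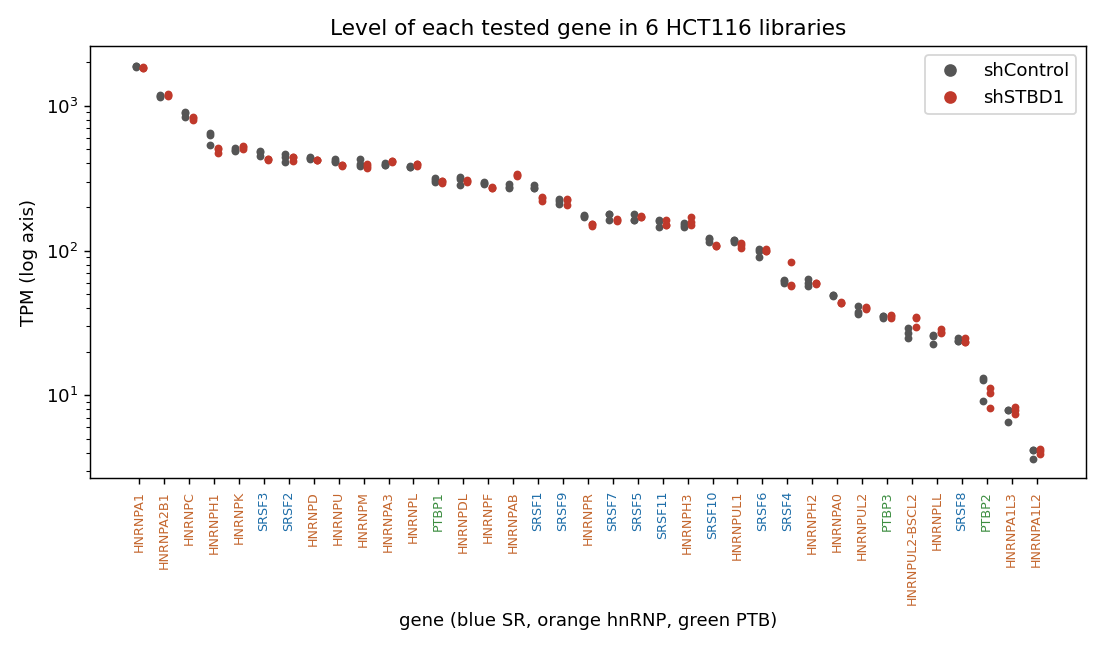
TPM (log axis) of the 37 tested SR, hnRNP and PTB genes in each of the 3 shControl (grey) and 3 shSTBD1 (red) libraries, ordered by the shControl mean. HNRNPA1 lies at the top near 1880 TPM and HNRNPA1L2 at the bottom near 4 TPM, and the distance between groups is small beside the distance between most genes.

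HNRNPA1, a core protein of the hnRNP particle and an exon repressor, has the highest level of all members, at 1897, 1877 and 1866 TPM in shControl and 1835, 1862 and 1822 TPM in shSTBD1. HNRNPA2B1, its close relative, follows at 1161, 1194 and 1154 TPM in shControl and 1201, 1163 and 1191 TPM in shSTBD1. HNRNPC, which binds uridine tracts, comes next with means of 878 TPM (SD 35.1, n = 3) in shControl and 819 TPM (SD 22.7, n = 3) in shSTBD1. Neither HNRNPA1 nor HNRNPA2B1 passes the test on counts, with log2 fold changes of -0.02 (standard error 0.033) and 0.02 (standard error 0.029). The sign of HNRNPA1 turns to 0.01 without shControl 1. HNRNPA1L2, a copy of HNRNPA1 without introns, is the lowest tested member, at 4.20, 4.16 and 3.65 TPM in shControl and 3.93, 4.25 and 4.14 TPM in shSTBD1. The genome also holds 74 HNRNPA1 pseudogenes in these files, and their summed counts amount to between 0.809% and 0.931% of the HNRNPA1 count, so few reads are assigned to them.

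The test calls 9 of the 37 members, which is 24.3%, beside 15.8% of all tested genes. The 3 called higher in shSTBD1 all have an hnRNP symbol (HNRNPUL2-BSCL2, HNRNPAB and HNRNPK), beside 8.22% of all tested genes called higher. HNRNPUL2-BSCL2 is a gene model for read-through transcripts, and HNRNPUL2 alone is not called. The other 6 are lower (SRSF1, HNRNPH1, SRSF8, HNRNPR, HNRNPA0 and SRSF4), beside 7.54% of all tested genes called lower. Abundant genes are called more often, and of the 955 tested genes within the interquartile range of the members' mean CPM, 33.7% are called, so the share among the members is not above that of genes of like abundance. The changes are small. The largest is 0.31 in absolute log2 fold change, for the read-through model HNRNPUL2-BSCL2, followed by 0.27 for HNRNPAB. For 30 of the 37 members the fold is under 1.1 in either direction. The median log2 fold change is -0.0043 over the members and 0.0023 over all tested genes. For 19 members the CPM of the groups does not overlap, 13 below and 6 above shControl, beside 33.6% of all tested genes. Of the 955 genes of like abundance, 532 do not overlap, 300 below and 232 above shControl, so the share among the members is not above theirs. Without shControl 1, where the share among genes of like abundance was not computed, the test calls 16 members, beside 16.2% of all tested genes. These are the 9 without SRSF4, together with HNRNPUL2, SRSF7, HNRNPC, PTBP3, SRSF10, SRSF3, HNRNPA3 and HNRNPL. HNRNPC then has a log2 fold change of -0.09 (edgeR adjusted p = 0.00458, beside 0.122 with all libraries), and HNRNPL, an exon regulator that binds CA repeats, one of 0.07 (edgeR adjusted p = 0.0498, beside 0.224).

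**Figure D2:**
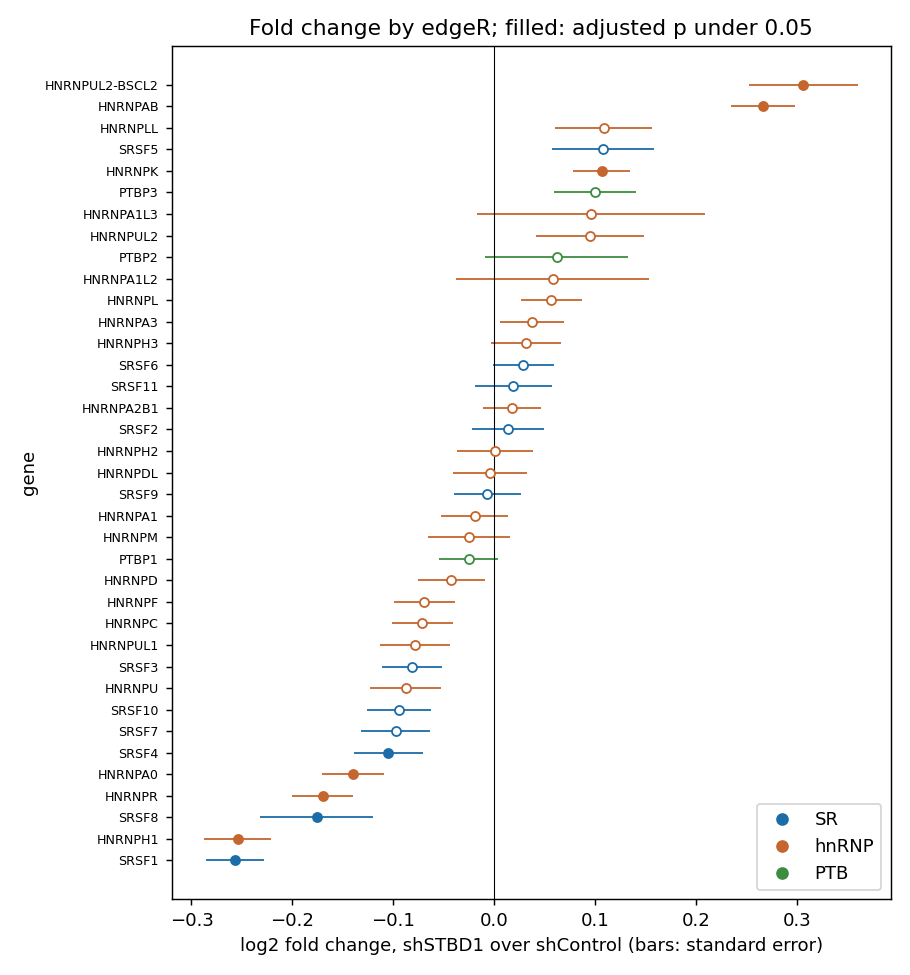
Log2 fold change of CPM (shSTBD1 over shControl, edgeR) for the 37 tested members with its standard error, filled where the adjusted p is under 0.05. SRSF1 and HNRNPH1 lie lowest at -0.26 and -0.25, HNRNPUL2-BSCL2 and HNRNPAB highest at 0.31 and 0.27, and most members sit between -0.1 and 0.1.

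Among the SR genes, 3 of 11 tested are called (27.3%, beside 15.8% of all tested genes) and all 3 are lower in shSTBD1. Of the 955 genes of the members' abundance, 183 are called lower and 139 higher. Whether the side is particular to so few SR genes was not tested. SRSF1 (ENSG00000136450; GRCh38 chromosome 17, 58000919 to 58007346, minus strand), the founding SR protein and a known proto-oncogene, is at 453, 454 and 448 CPM in shControl and at 377, 376 and 381 CPM in shSTBD1. All shSTBD1 libraries lie below all controls, and the gap is many times the spread within either group. The level fell by 16.3%, or -0.26 in log2 fold change (standard error 0.029, edgeR adjusted p = 1.26e-05). Per length the picture is the same, with 274 TPM (SD 8.70) in shControl and 229 TPM (SD 7.25) in shSTBD1. The call holds in all 17 alternative settings.

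SRSF8 (ENSG00000263465; chromosome 11, 95066919 to 95071225, plus strand), a close copy of SRSF2, is at 38.5, 40.8 and 38.6 CPM in shControl and at 32.8, 37.2 and 34.2 CPM in shSTBD1. Its log2 fold change is -0.18 (standard error 0.056, edgeR adjusted p = 0.0417). SRSF4 (ENSG00000116350; chromosome 1, 29147743 to 29181900, minus strand), a large SR protein with a long arginine and serine tail, is at 119.8, 115 and 115 CPM in shControl and at 107, 109 and 109.7 CPM in shSTBD1. Its log2 fold change is -0.10 (standard error 0.034, edgeR adjusted p = 0.0474). The groups do not overlap for either gene, but both calls lie at the edge of the threshold. The call of SRSF4 holds in 4 of 17 alternative settings and is lost when any single library is left out, with an adjusted p of 0.0728 without shControl 1. That of SRSF8 holds in 8 of 17 and is lost without shControl 2, shControl 3, shSTBD1 1 or shSTBD1 3 (edgeR adjusted p from 0.0713 to 0.163).

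The other SR genes named at the outset do not pass. SRSF3, which binds pyrimidine-rich exonic sites and is needed for cell proliferation, is at 410.0, 419.9 and 408 CPM in shControl and at 395, 388 and 386 CPM in shSTBD1. The groups do not overlap, with a log2 fold change of -0.08 (standard error 0.030, edgeR adjusted p = 0.0729), and without shControl 1 the adjusted p is 0.012. SRSF2, which is mutated in some leukaemias, is at 491, 532 and 541 CPM in shControl and at 528, 527 and 525 CPM in shSTBD1, so its groups overlap. SRSF7 and SRSF10, the latter a splicing repressor when dephosphorylated, change by -0.10 and -0.09 in log2 fold change (edgeR adjusted p = 0.0647 and 0.0526) and are called without shControl 1 (adjusted p = 0.00203 and 0.00721). Of the 11 tested SR genes, 7 have a negative and 4 a positive log2 fold change. The range runs from -0.26 to 0.11, with SRSF5 at the upper end.

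Among the hnRNP genes, 6 of 23 tested are called (26.1%, beside 15.8% of all tested genes), 3 in each direction. The 3 higher include the read-through model HNRNPUL2-BSCL2 described below. HNRNPH1 (ENSG00000169045; chromosome 5, 179614178 to 179634784, minus strand), which binds runs of guanines, is at 486, 516 and 521 CPM in shControl and at 419, 426 and 433 CPM in shSTBD1. The controls lie well above all shSTBD1 libraries, and shControl 1 is the lowest of them. The level fell by 16.1%, or -0.25 in log2 fold change (standard error 0.033, edgeR adjusted p = 6.25e-05).

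HNRNPR (ENSG00000125944; chromosome 1, 23303771 to 23344336, minus strand), which takes part in mRNA transport, is at 337, 323 and 330.3 CPM in shControl and at 291, 294 and 294 CPM in shSTBD1. The groups are apart, and the level fell by 11.1% (log2 fold change -0.17, standard error 0.030, edgeR adjusted p = 0.00113). HNRNPA0 (ENSG00000177733; chromosome 5, 137745651 to 137754363, minus strand), which binds AU-rich elements of mRNAs for inflammatory proteins, is at 366, 357 and 361 CPM in shControl and at 321, 335 and 327 CPM in shSTBD1. Its log2 fold change is -0.14 (standard error 0.030, edgeR adjusted p = 0.00501).

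HNRNPAB (ENSG00000197451; chromosome 5, 178204533 to 178211163, plus strand), a regulator of transcription and mRNA transport, has the smallest adjusted p of the genes called higher, at 347, 334 and 356 CPM in shControl and at 414, 414 and 419 CPM in shSTBD1. The level rises by 20.3% (log2 fold change 0.27, standard error 0.032, edgeR adjusted p = 2.19e-05). The call holds in all 17 alternative settings, as does that of HNRNPR. PHYKPL, a gene on the opposite strand whose span overlaps HNRNPAB, holds between 4.48% and 5.88% of its count. Whether counting used strand is not given in the sources used here.

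HNRNPK (ENSG00000165119; chromosome 9, 83968083 to 83980631, minus strand), which binds cytosine-rich RNA and DNA, is at 793, 804 and 794 CPM in shControl and at 859, 853 and 862 CPM in shSTBD1. All shSTBD1 libraries are above the controls, yet the gain is 7.65% (log2 fold change 0.11, standard error 0.029, edgeR adjusted p = 0.0180). The call is lost without shControl 3 or any shSTBD1 library (edgeR adjusted p from 0.0679 to 0.0840). Per TPM its groups overlap, at 487, 509.9 and 493 in shControl and at 529, 503 and 521 in shSTBD1.

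HNRNPUL2-BSCL2 (ENSG00000234857; chromosome 11, 62690275 to 62727384, minus strand) is a gene model for read-through transcripts that span HNRNPUL2 and its neighbour BSCL2, the gene of the lipid droplet protein seipin. It is at 83.6, 92.4 and 87.3 CPM in shControl and at 114, 98.1 and 114 CPM in shSTBD1, and shSTBD1 2 lies nearest to the controls. The log2 fold change is 0.31 (standard error 0.054, edgeR adjusted p = 0.001). Since it shares exons with both neighbours, RSEM divides reads among the 3 genes, and its posterior standard deviation, 3.41% of the count, is the largest of all tested members. HNRNPUL2 alone changes by 0.09 in log2 fold change (standard error 0.054, edgeR adjusted p = 0.256) and BSCL2 by -0.06 (edgeR adjusted p = 0.654). Without shControl 1, HNRNPUL2 is called higher, at 0.18 (standard error 0.033, edgeR adjusted p = 0.000362). When the 3 genes are summed, a step added after the values were seen, the log2 fold change is 0.16 (standard error 0.037, edgeR adjusted p = 0.00615). No member has a posterior standard deviation above 5% of its count.

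None of the 3 PTB genes is called. PTBP1, the main PTB of dividing cells, is at 685, 671 and 669 CPM in shControl and at 662, 665 and 662 CPM in shSTBD1. The groups do not overlap, but the difference is -0.03 in log2 fold change (standard error 0.029, edgeR adjusted p = 0.607). PTBP2, the neuronal form that PTBP1 represses through exon skipping and decay, is at 15.4, 16.8 and 15.3 CPM in shControl and at 16.4, 16.6 and 16.6 CPM in shSTBD1, and its groups overlap. PTBP3, which is found in blood and other cells, is at 186, 165 and 181 CPM in shControl and at 194, 187 and 189 CPM in shSTBD1. Its log2 fold change is 0.10 (standard error 0.041, edgeR adjusted p = 0.110), without shControl 1 it is 0.14 (edgeR adjusted p = 0.00716) and without shControl 2 it is 0.05 (edgeR adjusted p = 0.416).

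Levels of related genes can also be compared as TPM ratios within a library. The ratio of HNRNPH2, which differs from HNRNPH1 by few residues and is not called, to HNRNPH1 is 0.107, 0.0918 and 0.101 in shControl and 0.127, 0.117 and 0.117 in shSTBD1. The mean log2 ratio is 0.27 higher in shSTBD1, and the groups do not overlap. The ratio of HNRNPLL to HNRNPL is 0.11 higher and that of PTBP3 to PTBP1 is 0.06 higher on the log2 scale, again without overlap. For these 3 of the 7 ratios the two-sided exact permutation p is 0.1, the smallest that 3 against 3 libraries allow, and 0.233 after Benjamini-Hochberg adjustment over the 7 ratios. The ratio of PTBP2 to PTBP1 lies between 0.0290 and 0.0429 in shControl and between 0.0281 and 0.0372 in shSTBD1, and does not separate the groups. The ratios of HNRNPDL to HNRNPD, SRSF7 to SRSF3 and HNRNPUL1 to HNRNPU overlap as well (exact permutation p from 0.4 to 0.9). A TPM ratio also moves with effective length. For HNRNPLL the mean effective length is 2337 bases in shControl and 2217 bases in shSTBD1, and for PTBP3 it is 5805 and 6064 bases.

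Effective length is the mean length of a gene's transcripts weighted by the share RSEM gives each isoform, so it moves when isoforms change. It can be tested for 33 members, those with several isoforms in use. Limma calls 0 of the 33 at an adjusted p under 0.05, and likewise 0 of 13130 genes (0%). At an unadjusted p under 0.05 there are 6 members and 864 of all genes. The values are per gene, and isoform shares were not analysed here.

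For 34 of the 37 members the change of CPM and the change of TPM lie within 0.1 of each other on the log2 scale. SRSF4, SRSF8 and PTBP2 are the exceptions, and their effective lengths differ between libraries. The effective length of SRSF8 is 1821, 1909 and 1862 bases in shControl and 1582, 1764 and 1552 bases in shSTBD1, so all shSTBD1 libraries are shorter. Its log2 difference is -0.18 (standard error 0.052, limma adjusted p = 0.652). Accordingly the TPM of SRSF8 does not follow its counts, with means of 24.1 (SD 0.740) and 23.9 (SD 0.713). For SRSF4 the effective length is 2252, 2147 and 2125 bases in shControl and 2102, 2150.1 and 1487 bases in shSTBD1. Here a single library, shSTBD1 3, is short, and its TPM of 82.8 stands above the 56.7 to 62.8 of all others. PTBP2 runs from 1373 to 1874 bases in shControl and from 1655 to 2258 in shSTBD1, and its log2 TPM is 0.23 lower in shSTBD1 while its log2 CPM is 0.06 higher. Thus taking length into account turns the direction of the mean change for PTBP2, and for SRSF4 through shSTBD1 3 alone. The TPM of SRSF4 in shSTBD1 1 and shSTBD1 2, at 57.65 and 56.73, lies below the 59.37 to 62.8 of the controls. The change of SRSF8 comes close to 0, at -0.0098 in log2 TPM. The length differences of SRSF4 and PTBP2 do not pass either (limma adjusted p = 0.903 and 0.84). Whether the isoforms differ between the groups was not tested beyond the limma values.

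With per-library offsets for effective length, 5 members are called, beside 3.28% of all tested genes. They are HNRNPAB, SRSF1, HNRNPR, HNRNPH1 and HNRNPA0, with log2 fold changes of 0.26, -0.25, -0.18, -0.28 and -0.15. With limma on log2(TPM + 1), 3 members are called, beside 1.88% of all tested genes, and they are HNRNPAB, SRSF1 and HNRNPR. With offsets that remove each library's trend of counts with gene length, 14 members are called, beside 15.5% of all tested genes. These 14 hold all 9 and also SRSF7, SRSF3, PTBP3, HNRNPC and SRSF10. For none of these settings was the share among genes of the members' abundance computed.

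**Figure D3:**
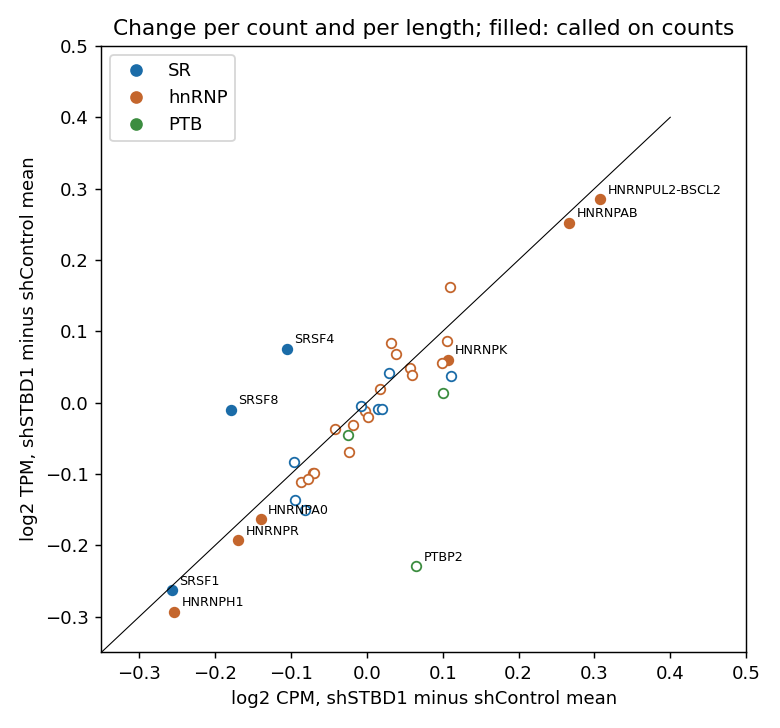
Difference between the group means of log2 CPM (horizontal) and of log2 TPM (vertical), shSTBD1 minus shControl, for the 37 tested members, with the line of equality. SRSF4 and SRSF8 lie above the line and PTBP2 below it, whereas SRSF1, HNRNPH1, HNRNPR, HNRNPA0 and HNRNPAB keep their direction on both axes.

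MYC, which binds the E-box CACGTG and related sites, is at 291, 317 and 309 CPM in shControl and at 340, 334 and 326 CPM in shSTBD1. It is called higher, with a log2 fold change of 0.12 (standard error 0.035, edgeR adjusted p = 0.0224). The call of MYC is lost without shControl 3, shSTBD1 1 or shSTBD1 2 (edgeR adjusted p = 0.0533, 0.117 and 0.0912) and with effective-length offsets (0.0577). The letters CACGTG, which read the same on both strands, were searched in the RefSeq promoter windows (GRCh38.p14, 250 bases before to 50 bases after each start) of the 38 members that matched by symbol. They occur in 7.26% of all 35116 windows and in 8 of the 53 windows of the members, which belong to 7 genes. The following lines give the first match of each gene, read along its own strand, with the E-box in capitals, to show which members hold it.
HNRNPA3 (chr2:177212713-177212738, plus strand): gaaaacgcgtCACGTGacgactggcc
HNRNPD (chr4:82374003-82374028, minus strand): gctctcgcgtCACGTGaccgggacgc
HNRNPDL (chr4:82430366-82430391, minus strand): aggcccggggCACGTGcagaaaggag
HNRNPH2 (chrX:101408170-101408195, plus strand): gagagttgctCACGTGaccgagatct
HNRNPH3 (chr10:68331633-68331658, plus strand): ccggtcgaacCACGTGgggccctttc
HNRNPM (chr19:8444923-8444948, plus strand): tgcgtcgggtCACGTGggcgcgcagg
HNRNPUL1 (chr19:41262570-41262595, plus strand): cctctgggccCACGTGagtgtctgtc

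HNRNPA3, HNRNPD, HNRNPDL, HNRNPH3 and HNRNPM take part in splicing or mRNA turnover. None of the 7 genes is called with all libraries. Without shControl 1, HNRNPA3 is called higher, at 0.06 in log2 fold change (edgeR adjusted p = 0.0375, beside 0.472). With all libraries their log2 fold changes run from -0.08 for HNRNPUL1 to 0.04 for HNRNPA3. All 9 called members have a window, and 0 of them hold CACGTG, beside 7 of the 38 members with a window. So few genes cannot show whether the letters go with the calls, and related sites were not searched. A match describes letters in a window and says nothing of binding. PKM, the pyruvate kinase gene whose exon choice HNRNPA1, HNRNPA2B1 and PTBP1 are known to steer, is at 2511, 2265 and 2321 CPM in shControl and at 2103, 2058 and 2028 CPM in shSTBD1. It is called lower (log2 fold change -0.20, standard error 0.036, edgeR adjusted p = 0.00152), and gene-level counts do not show which of its exons is used.

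The proteins that act on or beside the members were described by 5 lists of textbook membership with 114 genes, of which 113 could be tested. The test calls 38 of them, 17 higher and 21 lower, which is 33.6% beside 15.8% of all tested genes and 33.7% of genes of the members' abundance. Their median log2 fold change is -0.02. With effective-length offsets the count is 5, with ESRP1, SFPQ, SF3B6 and SF1 among them, beside 3.28% of all tested genes.

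Of the 12 kinases, phosphatases and importers of SR proteins, 3 are called (25%, beside 15.8% of all tested genes). CLK3, a nuclear kinase of SR proteins, rises by 0.20 in log2 fold change (edgeR adjusted p = 0.0141). TNPO1, an importin that carries HNRNPA1 into the nucleus, fell by 0.13 on the log2 scale (edgeR adjusted p = 0.00741), and DYRK1A, a kinase found in nuclear speckles, fell by 0.15 (edgeR adjusted p = 0.0195). With effective-length offsets CLK3 and TNPO1 are not called (edgeR adjusted p = 0.0845 and 0.27). The call of CLK3 is lost without shSTBD1 1 or shSTBD1 3 (edgeR adjusted p = 0.0699 and 0.0940) and that of DYRK1A without shControl 3, shSTBD1 1 or shSTBD1 2 (0.0707, 0.0829 and 0.0646). DYRK1A also loses it by DESeq2 (adjusted p = 0.0578) and with gene-length trend offsets (0.0518). PPP1CA, a phosphatase subunit, is at -0.12 and does not pass (edgeR adjusted p = 0.06), but is called without shControl 2 (0.0230). SRPK1 and TNPO3, the main cytoplasmic SR kinase and the SR importer, have log2 fold changes of -0.02 and 0.07 and are not called.

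Of the 20 SR-related and exon-definition proteins, 2 are called, both lower. BCLAF1, a protein of arginine and serine repeats, fell by 0.17 on the log2 scale (edgeR adjusted p = 0.00374), and SCAF8, which binds the tail of RNA polymerase II, fell by 0.19 (edgeR adjusted p = 0.0107), a call lost without shSTBD1 2 (0.0815). SON, a scaffold of nuclear speckles, and ACIN1 have log2 fold changes of -0.09 and -0.08 and do not pass. At 10%, this list is below the share of all tested genes.

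The other sequence-specific regulators show the most calls, 15 of 30 tested (50%, beside 15.8% of all tested genes), with 7 higher and 8 lower. ESRP1, an epithelial splicing regulator, rises by 0.26 in log2 fold change (edgeR adjusted p = 5.05e-05), and its relative ESRP2 by 0.15 (edgeR adjusted p = 0.0290). MBNL1, which is known to control developmental exons, rises by 0.16 (edgeR adjusted p = 0.00136). Its relative MBNL2 is called lower, at -0.24 in log2 fold change (edgeR adjusted p = 0.00879). ELAVL1, which binds AU-rich mRNAs, fell by 0.23 on the log2 scale (edgeR adjusted p = 0.000133), and SFPQ, a paraspeckle protein, fell by 0.21 (edgeR adjusted p = 0.000177). With effective-length offsets 5 genes of all the lists are called, ESRP1 and SFPQ among them. Values of ESRP2, MBNL1, MBNL2 and ELAVL1 under other settings are not reported here. The epithelial markers CDH1, KRT19, KRT8 and KRT18 also rise, by 0.29, 0.28, 0.22 and 0.20 in log2 fold change. EPCAM, at 0.04, and the colon marker CDX2, at -0.07, are not called (edgeR adjusted p = 0.422 and 0.662). The part of these markers in the result was not tested.

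Of the 36 core spliceosome genes, 14 are called (38.9%, beside 15.8% of all tested genes), 9 higher and 5 lower. SF3B6, a small subunit of the U2 particle that contacts the branch point, rises by 0.39 in log2 fold change (edgeR adjusted p = 1.80e-05), more than any member. SNRPB and SNRPC, parts of the Sm ring and of the U1 particle, rise by 0.20 and 0.19 (edgeR adjusted p = 0.00171 and 0.00181). Both are lowest in shControl 1 (309 and 81.4 CPM), beside 323 to 345 and 84.7 to 85.5 CPM in the other controls. SF1, the branch point binding protein, fell by 0.17 on the log2 scale (edgeR adjusted p = 0.00111). PRPF8, the largest protein of the tri-snRNP, fell by 0.15 (edgeR adjusted p = 0.00763). With effective-length offsets 5 genes of all the lists are called, SF3B6 and SF1 among them. Values of SNRPB, SNRPC and PRPF8 under other settings are not reported here.

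Of the 15 genes of nonsense-mediated decay and the exon junction complex, 4 are called (26.7%, beside 15.8% of all tested genes). All 4 are lower in shSTBD1, and of the 955 genes of the members' abundance 183 are called lower and 139 higher. Whether the side is particular to this list was not tested. UPF1, the central helicase of this decay, fell by 0.12 on the log2 scale (edgeR adjusted p = 0.0189), and RBM8A, a core of the exon junction complex, fell by 0.12 (edgeR adjusted p = 0.0353). SMG6, the endonuclease, fell by 0.17 (edgeR adjusted p = 0.0314). The calls of UPF1 and SMG6 are lost when the trend with gene length is removed (edgeR adjusted p = 0.0593 and 0.0608). UPF1 also loses it without shControl 3, shSTBD1 1 or shSTBD1 3 (edgeR adjusted p from 0.066 to 0.112), SMG6 without any library but shControl 2 (0.0582 to 0.131, with 0.0845 without shControl 1) and RBM8A without any library but shControl 1 (0.0814 to 0.155). DESeq2 gives SMG6 an adjusted p of 0.0745 and RBM8A one of 0.0503, and RBM8A turns to 0.04 with effective-length offsets.

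**Figure D4:**
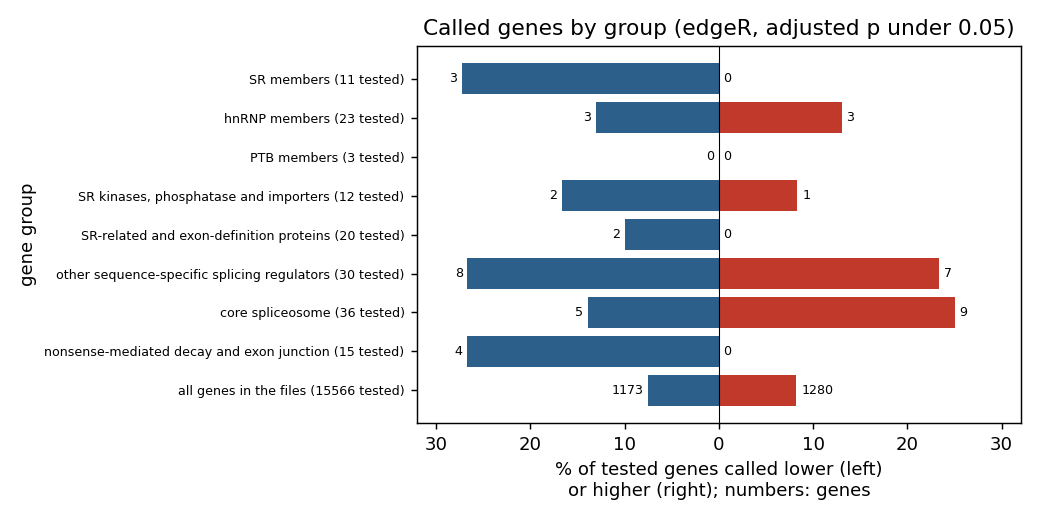
Percentage of tested genes called lower (left, blue) or higher (right, red) in shSTBD1 by edgeR at an adjusted p under 0.05, for the SR, hnRNP and PTB genes, the 5 lists and all genes, with the number of genes at each bar. The SR genes and the decay genes, with 3 and 4 calls, have them on the lower side only. The other regulators and the core spliceosome have calls on both sides. Of all tested genes, 7.54% are called lower and 8.22% higher.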

How the data were processed

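The authors align clean reads to Hg38 by STAR (2.7.1a), with gene models of Ensembl release 93, and estimate abundance by RSEM (1.3.1). The expected counts deposited by the authors are not normalized and need not be whole. The deposited TPM values divide these counts by effective length and are scaled so that all libraries share 1 total. Transcript length, effective length and a posterior standard deviation per count stand beside them. Whether the library or the counting keeps strand is not given in the sources used here.

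Of 58395 gene identifiers, 57754 are matched to a symbol, biotype and position in GENCODE release 44 on GRCh38, which is later than the authors' annotation. Pseudogenes with similar symbols, 123 in all, are left out of the members. Samples are grouped by their titles, 3 biological replicates per group by the methods. Expected counts are rounded, filtered by filterByExpr, scaled by TMM and tested by edgeR 4.0.16 (quasi-likelihood F-test, R 4.3.3) without a block, and p-values are adjusted by the Benjamini-Hochberg method over 15566 genes. Standard errors are derived from the fold change and the F statistic. The common biological coefficient of variation is 3.37%. Log2 effective length, centred on each library's median, is tested by limma 3.58.1 with a prior variance trended on mean CPM. TPM ratios are tested by a two-sided exact permutation test over the 6 libraries. DESeq2 1.42.0 and the other alternatives are described in the closing section. The scripts were tested on simulated counts and lengths. All p-values and intervals measure the spread between these libraries.

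The members and the lists were chosen with earlier results of these data known. Members in the text are all called genes, a set named at the outset (SRSF1, SRSF2, SRSF3, HNRNPA1, HNRNPA2B1, PTBP1, PTBP2, PTBP3) those at the highest and lowest level, the pairs of the TPM ratios and the genes with a promoter match. Other members (SRSF5, SRSF7, SRSF10, HNRNPC, HNRNPL and HNRNPUL2) were named after their values were seen. From each list, up to 4 genes with the smallest adjusted p are named, and further ones were named after their values were seen. The values of 1 called gene of the decay list are not reported here.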

Additional observations from a re-analysis of the deposited data

How the results depend on the processing

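The 9 called members were recomputed under 17 alternative settings. SRSF1, HNRNPR and HNRNPAB pass in all of them, HNRNPH1 and HNRNPA0 in all but limma on TPM, HNRNPUL2-BSCL2 in 14, HNRNPK in 10, SRSF8 in 8 and SRSF4 in 4. The count of called members is 5 with effective-length offsets, 14 with gene-length trend offsets and 3 with limma on log2(TPM + 1) or log2(TPM + 0.1), and it runs from 6 to 16 with a library left out, with 16 without shControl 1. Of these, the members called higher number 1 with effective-length offsets, 1 with limma on TPM at either pseudocount, 5 without the low-count filter and 2 to 7 with a library left out. The members called lower number 10 with gene-length trend offsets, 2 with limma on TPM at either pseudocount and 4 to 9 with a library left out. DESeq2 calls 7 members, all among the 9, beside 13.8% of all tested genes. The list genes called number 5 with effective-length offsets (2 higher, 3 lower), and 22 to 40 with a library left out (11 to 19 higher, 11 to 22 lower), lowest without shSTBD1 3. The cause of these shifts was not tested. All genes called fall likewise, to 292 under limma on log2(TPM + 1) and 511 under effective-length offsets. The share of all tested genes called is 1.88% and 1.86% with limma at a pseudocount of 1 and 0.1 TPM. It is 3.28% with effective-length offsets, 15.5% with gene-length trend offsets and 9.85% without the low-count filter. With a library left out it runs from 8.9% to 16.2%, lowest without an shSTBD1 library (8.9% to 9.84%) and highest without shControl 1.

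Signs turn for SRSF4 (0.10 with effective-length offsets, 0.0747 and 0.0755 with limma at a pseudocount of 1 and 0.1 TPM), PTBP2 (-0.22, -0.21 and -0.23 in the same order), SRSF8 (0.00048 with effective-length offsets), SRSF2 (-0.0104 with gene-length trend offsets, -0.0091 with limma at either pseudocount, -0.0294 to 0.0414 with a library left out, lowest without shControl 1), HNRNPA1 (-0.0423 to 0.0141 with a library left out, highest without shControl 1) and RBM8A (0.0394 with effective-length offsets). None of these passes the test there. Effective length gave 0 called members under every setting run. The log2 difference of HNRNPH2 to HNRNPH1 runs from 0.21 to 0.32 with a library left out, and adding 1 TPM moves no ratio by more than its spread. STBD1 runs from -0.76 to -0.57.

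Same-numbered libraries deviate together with r = 0.0708, 0.0676 and -0.00841, so the numbers are not taken to pair them. With the replicate block 9 members are called, 8 of them shared with the test without it, and SRSF4 has an adjusted p of 0.0524. With this block 39 list genes are called, and 16.6% of all tested genes. Standard errors of the members' log2 fold changes run from 0.0285 for HNRNPK to 0.113 for HNRNPA1L3, and differences within them are not detectable with 3 libraries per group.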
